A study of Mus musculus with 31 samples.

Results

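Mouse cardiac fibroblasts that had gone from a 3D arrangement to a flat one and back into 3D, a second 3D state labelled 3D-2D-3D, were compared with cells in their first 3D state, labelled 3D. The libraries were taken by their labels, 3 of 3D-2D-3D and 3 of 3D, which makes 6 of the 29 RNA sequencing libraries of the series. All cells came fresh from hearts of C57Bl/6 mice aged 8-12 weeks, and the labels name no genetic change and no added agent in either group. The series also holds libraries of cells moved from 3D to 2D (3D-2D, 2 libraries), of 2D and of 5-day cultures in 3D and 2D, which are used below as points of comparison. The label 3D-2D-3D was taken to list the arrangements in sequence. How long the cells stayed in each, what the substrates were made of and how many mice went into a library is not given in the sources used here, so a passage through 2D and a longer total time in culture cannot be told apart. No source states that the replicates of a group were separate cultures, so the spread between them may be technical. A p-value here reflects that spread only, estimated over all 29 RNA libraries. The comparison asks how completely the cells return to the first 3D state and what still differs after the passage.

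On a stiff flat surface fibroblasts spread, build stress fibres and turn on contractile and YAP-driven genes, a shift towards the myofibroblast that scars the injured heart. In 3D cultures where tension is low, those genes can fall and genes of the resting fibroblast can return. Activins, TGF-beta and bone morphogenetic proteins are ligands of the same receptor family that fibroblasts both secrete and answer to, and insulin-like growth factor 1 is a growth signal that resting cardiac fibroblasts and macrophages supply to the heart.

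The 6 libraries held between 18777061 and 29909400 counted reads in genes, and 14036 genes passed the filter on low counts. Library 3 of each group stood apart from libraries 1 and 2. Reads of Xist, which the inactive X chromosome of female cells makes, came to 20032, 18203 and 7243 in 3D-2D-3D libraries 1 to 3, against 15873, 13616 and 8193 in 3D libraries 1 to 3. Reads of 4 Y-linked genes came to 1, 0 and 2620 in 3D-2D-3D, against 0, 1 and 2498 in 3D. Library 3 of each group thus held reads of Xist and of the Y chromosome together, while libraries 1 and 2 held hardly any of the Y chromosome. Both 3D-2D libraries held 0 reads of these Y-linked genes. The courses through 3D-2D below therefore have no 3D-2D library that resembles library 3 in this. Libraries 1 and 2 of 3D-2D-3D were also nearly alike, with a chi-square per gene of 2.09 between their counts, against 13.0 for libraries 1 and 2 of 3D and between 57.0 and 240.2 for pairs that held a library 3. The main counts of called genes are therefore given over all 3 libraries, over libraries 1 and 2, and for library 3 alone. Many single genes and lists below are given over all 3 libraries only. A p-value in libraries 1 and 2 counts these nearly alike libraries as separate. In library 3 alone, 1 library is set against 1 and each is assumed to vary like the other groups.

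The fibroblast identity of both groups was present in every library. Col1a1 and Col1a2, the chains of type I collagen, had 10607, 10573 and 6424 and 6632, 6604 and 5121 CPM, counts scaled to a common library size, in 3D-2D-3D, against 12876, 14298 and 9472 and 6831, 7673 and 5463 CPM in 3D. Pdgfra, a receptor that marks cardiac fibroblasts, had 354, 370.2 and 308 CPM in 3D-2D-3D, against 566, 629 and 472 CPM in 3D. Tcf21, a transcription factor of the same lineage, had 47.9, 46.4 and 65.9 CPM in 3D-2D-3D, against 46.8, 51.9 and 92.2 CPM in 3D. Of these genes Pdgfra was lower in every library of 3D-2D-3D than in any of 3D (log2 fold change -0.69 ± 0.20 SE, adjusted p = 0.015, edgeR's quasi-likelihood test with Benjamini-Hochberg adjustment over all genes, as for every adjusted p below). That call was lost without 3D library 2 (adjusted p = 0.076) and without 3D-2D-3D library 3 (adjusted p = 0.052), while the other 3 genes overlapped between the groups and did not pass the test.

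The second 3D state lay nearer to the first than to the flat state it came from, and it lay nearest to 3D library 3. The distance between 2 libraries was taken as the standard deviation, over all genes, of the difference in log2 CPM. From the 3D-2D-3D libraries it was 0.625 to 0.714 to 3D library 3, 1.01 to 1.18 to 3D libraries 1 and 2, 1.20 to 1.24 to the 3D-2D libraries and 1.15 to 1.39 to the 2D libraries. Within 3D-2D-3D it was 0.232 between libraries 1 and 2 and 0.540 and 0.552 to library 3. Within 3D it was 0.280 between libraries 1 and 2, and 0.966 and 1.06 to library 3, so that 3D library 3 was closer to each library of the second 3D state than to the other libraries of its own group. The distances are descriptions and were not tested.

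**Figure D1:**
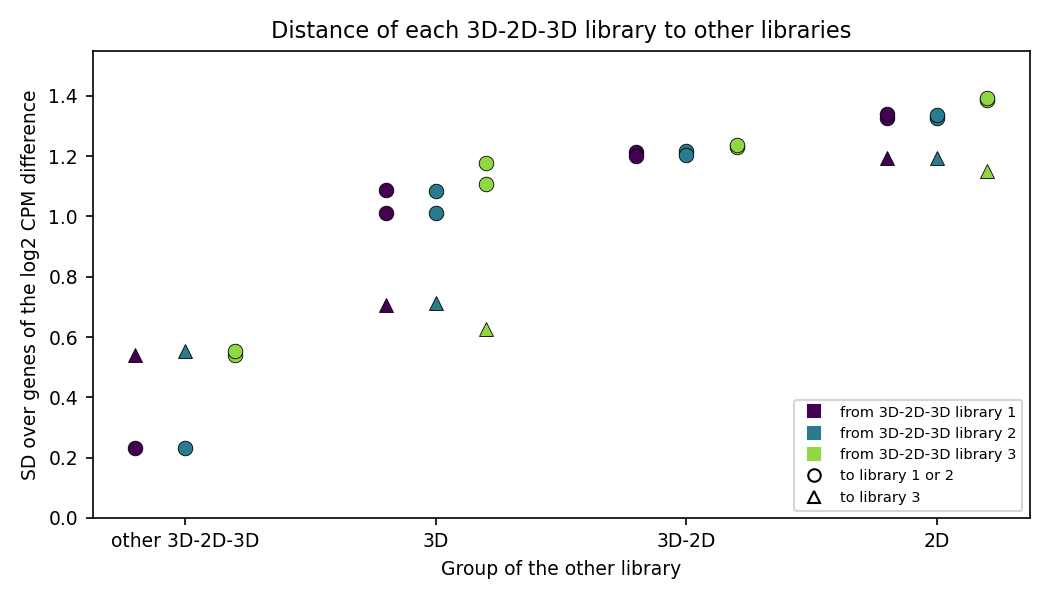
Distance of each 3D-2D-3D library (colour) to the other libraries of its group, to 3D, to 3D-2D and to 2D, as the standard deviation over 14036 genes of the difference in log2 CPM. Circles are libraries 1 and 2 and triangles library 3 of the group on the horizontal axis; the triangles of 3D lie at 0.625 to 0.714, below its circles at 1.01 to 1.18.

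Over all 3 libraries, 1566 genes were called higher in 3D-2D-3D than in 3D, which is 11.2% of the genes tested, and 1661 were called lower, which is 11.8%. The 3227 called genes are 23.0% of those tested. Counts in the gene lists below are to be read against the share over all genes in the same fit. Scaling by library totals alone gave 1179 higher and 1890 lower. Of the called genes 476 were higher and 1075 lower by at least 2-fold, but with the replicate number as a block the split was 351 and 391, and in library 3 it was 197 and 173. Against the same 3D libraries, the 3D-2D cells had 4044 genes called higher, or 28.8%, and 3892 called lower, or 27.7%. The total fell to 1991 calls without 3D library 1 and 2064 without 3D library 2, and the calls of higher genes fell to 865 and 966 without those libraries and to 1025 and 1031 without 3D-2D-3D libraries 1 and 2. Without 3D library 2 the lower calls came to 1098. With the replicate number as a block, a fit of the 6 libraries called 861 genes higher, 6.34% of the 13573 genes it tested. It called 726 lower, 5.35%. Without the block, a fit of the 6 libraries called 1485 genes in all.

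Many of the lower genes were lower in libraries 1 and 2 and not in library 3. In libraries 1 and 2, 2012 genes were called higher (14.3%) and 1956 lower (13.9%), while in library 3 there were 340 higher (2.42%) and 233 lower (1.66%). Of the 2012 genes higher in libraries 1 and 2, 83.2% had the same sign in library 3, with a median log2 fold change of 0.73 in libraries 1 and 2 and 0.32 in library 3. Of the 1956 lower genes, 69.0% had the same sign in library 3, and their median was -1.54 in libraries 1 and 2 and -0.29 in library 3. Over all genes the signs were the same for 64.6%. Among the 1661 genes called lower over all libraries, 510 had 3D library 3 at or below the level of a 3D-2D-3D library, whereas only 68 of the 1566 higher genes had it at or above one. Called with the same sign both in libraries 1 and 2 and in library 3 were 269 higher genes (1.92% of those tested) and 174 lower genes (1.24%). A test of the difference itself called 264 genes (1.88%) whose change was not the same in library 3 as in libraries 1 and 2, 135 of them in the positive and 129 in the negative direction.

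**Figure D2:**
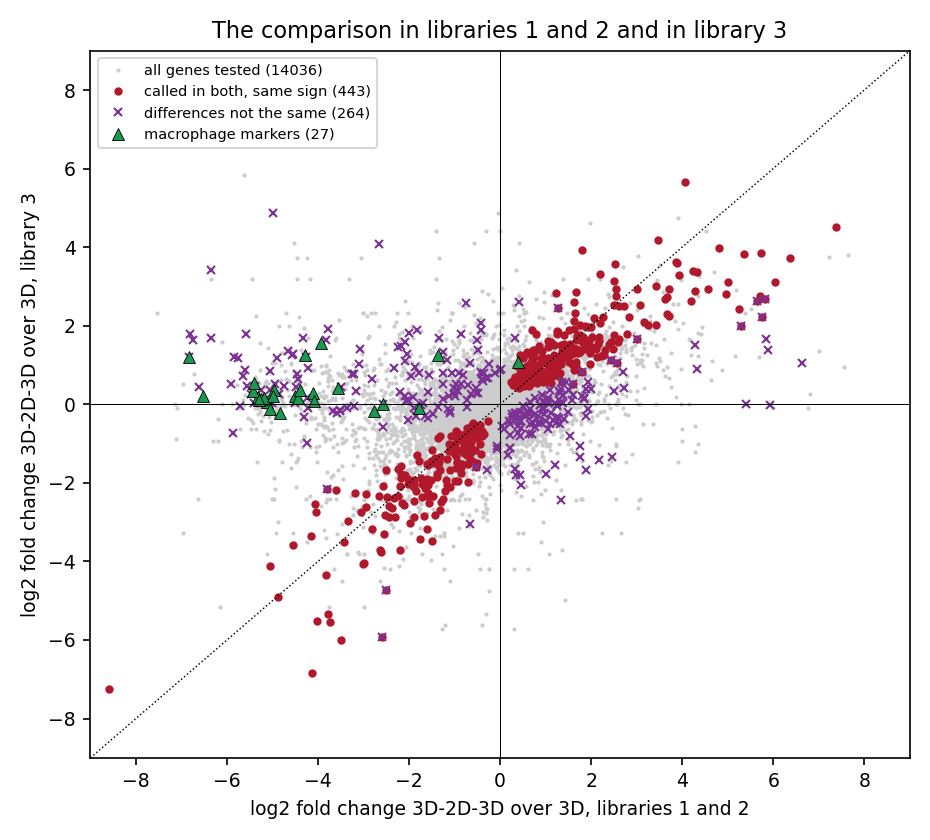
Log2 fold change of 3D-2D-3D over 3D for each of 14036 genes in libraries 1 and 2 (horizontal) and in library 3 (vertical), with the dotted line where both are equal. Red points are the 443 genes called in both with the same sign, purple crosses the 264 genes whose changes were not the same, and green triangles the 27 macrophage markers tested, of which 26 were called lower in libraries 1 and 2 and 0 in library 3.

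Genes that differ between the arrangements were taken from libraries outside the comparison, as those at least 2-fold apart between 3D-5days and 2D-5days. Of the genes tested, 1006 (7.17%) were higher and 1153 (8.21%) lower in 3D at 5 days. The mean of the lower list came back close to its first level, while a larger share of its genes was called than of all genes. Its mean log2 CPM was 3.02 in each library of 3D-2D-3D, against 3.07, 3.10 and 3.05 in 3D, after 4.20 and 4.15 in the 3D-2D libraries. Of its 1153 genes, 14.3% were called higher and 15.6% lower in 3D-2D-3D than in 3D, against 11.2% and 11.8% over all genes, with a median log2 fold change of -0.06, against 0.02 over all genes. In 3D-2D against 3D, a comparison that uses the same 3D libraries, 636 of them were higher and 125 lower, with a median of 1.01.

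The list higher in 3D at 5 days returned only in part. Its mean log2 CPM was 3.05, 3.06 and 2.81 in 3D-2D-3D, against 3.75, 3.70 and 3.05 in 3D, after 1.89 and 1.77 in 3D-2D. Libraries 1 and 2 of 3D-2D-3D lay at the level of 3D library 3, and library 3 of 3D-2D-3D lay below it. Of the 1006 genes, 10.4% were called higher and 33.9% lower in 3D-2D-3D than in 3D, with a median of -0.50. In library 3 alone 2.19% were called higher and 6.46% lower, with a median of -0.19, and with the block 89 of 953 were higher and 164 lower. In 3D-2D against the same 3D libraries 46 were higher and 716 lower, with a median of -1.89. The list held 6 of the 27 macrophage markers and 12 of the 17 endothelial markers tested, whose part in these numbers was not tested.

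**Figure D3:**
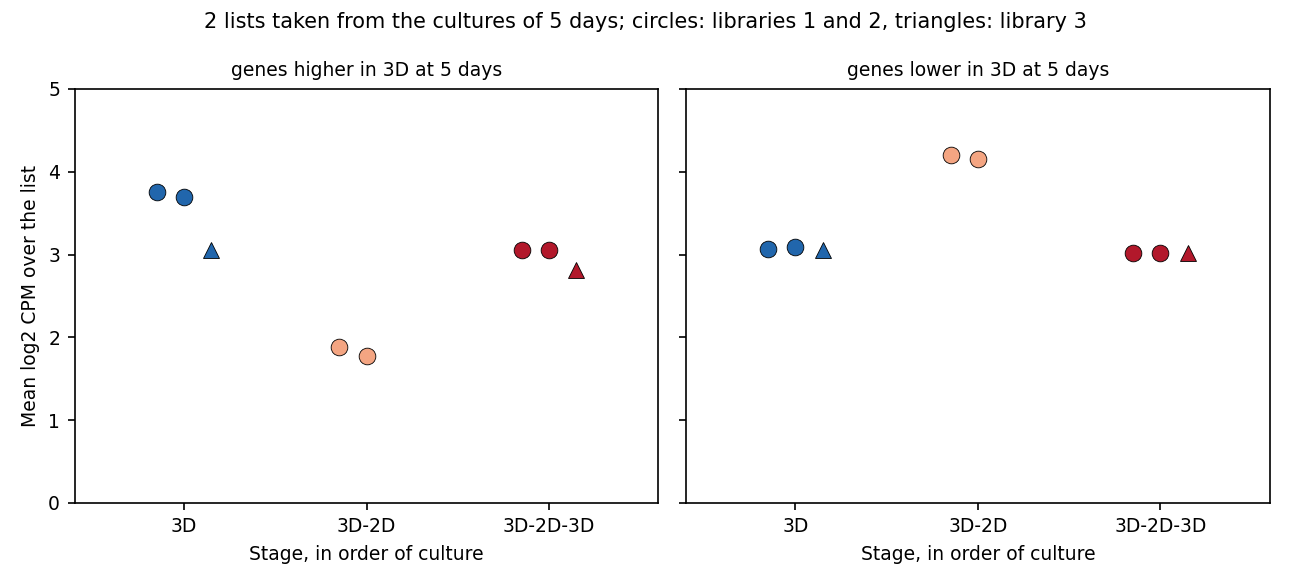
Mean log2 CPM of the 1006 genes higher and the 1153 genes lower in 3D at 5 days, in each library of the successive stages 3D, 3D-2D and 3D-2D-3D (circles: libraries 1 and 2, triangles: library 3). The second list ends at 3.02, near its first level of 3.05 to 3.10, while the first list ends at 2.81 to 3.06, against 3.05 to 3.75 in the first 3D state.

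Of all gene lists, macrophage markers had the lowest median log2 fold change between the second and the first 3D state, -4.31, and the low values came from libraries 1 and 2, since the median was 0.21 in library 3. Their summed level was 905, 872 and 1080 CPM in 3D-2D-3D, against 15431, 10894 and 1026 CPM in 3D. The third 3D library was at the level of the second 3D state, and the other two lay far above it. Of 27 markers tested, 24 were called lower and 0 higher over all libraries, 26 lower in libraries 1 and 2, and 0 in either direction in library 3 or with the block. Mrc1, a scavenger receptor of resident macrophages, had 3.07, 2.50 and 2.90 CPM in 3D-2D-3D, against 307, 215 and 2.50 CPM in 3D. Itgam, the alpha chain of a leukocyte integrin, had 12.4, 10.6 and 12.3 CPM in 3D-2D-3D, against 581, 395 and 8.40 CPM in 3D. Adam8, a protease of myeloid cells, was the largest fall among abundant genes whose groups did not overlap, with 12.6, 12.5 and 17.4 CPM in 3D-2D-3D, against 791, 525 and 18.0 CPM in 3D, and Spi1, the transcription factor that makes myeloid cells, had 2.66, 2.77 and 2.48 CPM in 3D-2D-3D, against 92.2, 62.7 and 2.88 CPM in 3D. In both genes 3D library 3 lay just above the 3D-2D-3D libraries, and both calls were lost with the block (adjusted p = 0.23 and 0.19). Plxnc1, Cfp, Kcnab2, Rassf2 and Apobec1 were also among the 12 largest falls without overlap, and of them only Rassf2, a Ras-association protein, kept its call with the block (adjusted p = 0.0077). In bulk RNA fewer cells of a type and less RNA of that type per cell cannot be told apart.

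Lysosome and lipid storage genes were also lower mainly against 3D libraries 1 and 2, while the other lists were mixed. Of 41 lysosome and autophagy genes, 12 were called lower and 1 higher, with a summed level of 22954, 22440 and 23169 CPM in 3D-2D-3D, against 48206, 41808 and 24234 CPM in 3D, with 0 called in library 3, 2 lower with the block and 6 lower without 3D library 1. Ctsb, a lysosomal protease, had 2457, 2415 and 2233 CPM in 3D-2D-3D, against 8533, 6853 and 2214 CPM in 3D, and its call was lost without 3D library 1 (adjusted p = 0.072) and with the block (0.16). Of 18 genes of adipogenesis and lipid storage 9 were lower, 3 with the block, among them Cd36, a fatty acid receptor that macrophages also carry, with 40.3, 38.4 and 27.7 CPM in 3D-2D-3D, against 1819.5, 1229.8 and 24.0 CPM in 3D. Of 17 endothelial markers 10 were lower and 2 higher, but 2 were lower with the block, 0 in library 3, 3 without 3D library 1, 1 without 3D library 2, 12 without 3D library 3, 2 without 3D-2D-3D library 1 and 4 without 3D-2D-3D library 2 or 3. Their summed level was nonetheless 439, 442 and 619 CPM in 3D-2D-3D, against 339, 362 and 452 CPM in 3D. Kdr, a receptor of vascular endothelial growth factor, had 0.477, 0.454 and 0.387 CPM in 3D-2D-3D, against 5.89, 5.30 and 0.902 CPM in 3D. Of 12 cardiomyocyte markers tested 1 was lower and 0 higher, of 14 epicardial and mesothelial markers 2 were higher and 0 lower, and of 7 Schwann and neural markers 2 were higher and 3 lower. Of 15 lymphocyte markers 1 was tested and was called higher. It was near the floor, with 0.82, 0.77 and 0.29 CPM in 3D-2D-3D, against 0.25, 0.048 and 0.035 CPM in 3D. That marker was not called in libraries 1 and 2 and was not tested with the block. Of 8 erythroid markers 0 passed the filter. How much of these changes goes with the macrophage markers was not tested. In library 3 the log2 fold changes of Ctsb and Cd36 were 0.01 ± 0.44 and 0.21 ± 1.37.

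**Figure D4:**
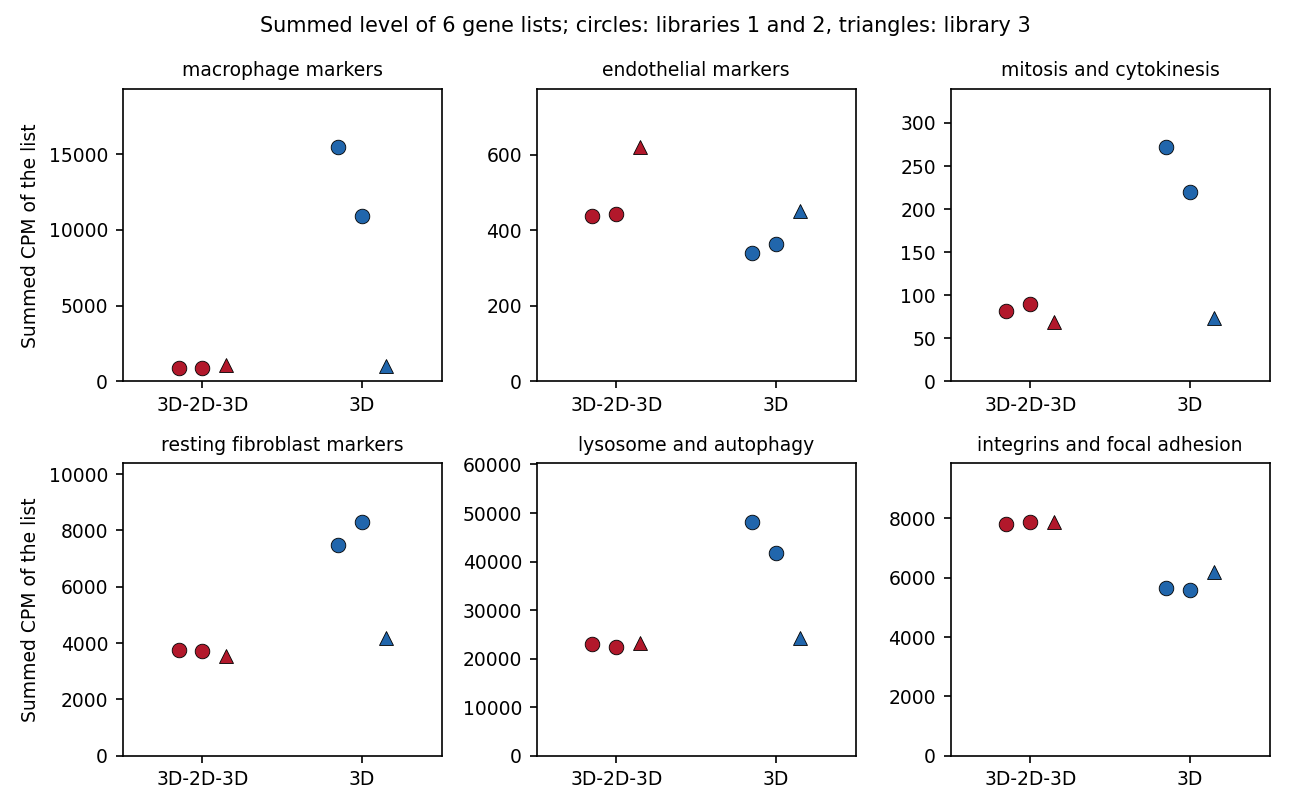
Summed CPM of 6 gene lists in each library of 3D-2D-3D (left in each panel) and 3D (right); circles are libraries 1 and 2 and triangles library 3. Macrophage, mitosis, resting fibroblast and lysosome genes are highest in 3D libraries 1 and 2, while integrin and focal adhesion genes stand at 7822 to 7890 CPM in 3D-2D-3D, above the 5573 to 6188 CPM of all 3D libraries.

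The mean level of contractile genes was far below that of the flat cells again, but many single members were not back at their first level. Of 32 contractile and actin cytoskeleton genes, 11 were called higher and 7 lower in 3D-2D-3D than in 3D, against 11.2% and 11.8% over all genes, with a median log2 fold change of -0.07. The lower calls came to 4 without 3D library 2 or without 3D-2D-3D library 3. In 3D-2D against the same 3D libraries 28 were higher and 1 lower, with a median of 1.94. Their mean log2 CPM was 5.85, 5.82 and 5.85 in 3D-2D-3D, against 5.97, 6.00 and 5.98 in 3D, while it was 8.61 and 8.70 in 3D-2D. Acta2, the smooth muscle actin that defines the myofibroblast, had 19.1, 19.0 and 17.8 CPM in 3D-2D-3D, against 50.4, 60.5 and 49.5 CPM in 3D, and 2476 and 2886 CPM in 3D-2D. Its level in the second 3D state was lower than in the first in every library (log2 fold change -1.52 ± 0.40, adjusted p = 0.0085).

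The 18 called members are thus a larger share of the list than the 23.0% called over all genes, and their levels differed from the first 3D state in both directions. Mylk, the kinase that activates myosin light chain, had 2.46, 2.54 and 2.35 CPM in 3D-2D-3D, against 33.7, 35.9 and 10.6 CPM in 3D, and fell by 3.80 ± 0.23 on the log2 scale in libraries 1 and 2 (adjusted p = 1.1e-09) and by 2.16 ± 0.31 in library 3 (adjusted p = 0.00031). Ankrd1, a muscle ankyrin repeat protein and YAP target, had 33.6, 34.7 and 36.5 CPM in 3D-2D-3D, against 8.33, 8.79 and 12.6 CPM in 3D, and 2489 and 3460.0 CPM in 3D-2D. It thus rose over the first 3D state (1.81 ± 0.46, adjusted p = 0.0072), though far less than in the flat cells. Of 22 YAP and TEAD target genes 4 were higher and 4 lower, with a median of 0.17, and with the block 1 was higher and 3 lower. Ctgf, a matricellular YAP target, had 353, 354 and 605 CPM in 3D-2D-3D, against 262, 262 and 245 CPM in 3D, with no overlap, but did not pass the test (adjusted p = 0.061). Cyr61, its close relative, had 28.4, 29.8 and 19.4 CPM in 3D-2D-3D, against 383, 355 and 22.0 CPM in 3D, so that its fall (-3.29 ± 0.58, adjusted p = 0.0004; 0.19 with the block) was not the same in library 3 (adjusted p of the difference 0.0025).

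Ligands of the TGF-beta family were among the largest changes that libraries 1 and 2 shared with library 3. Inhba encodes the subunit of activin A and lies on chromosome 13 from 16004256 to 16031609 of the mm10 build. It rose in every library, and the insulin-like growth factor gene Igf1, on chromosome 10 from 87858265 to 87937047, fell in every library. The 300 bases around a RefSeq start of each (RefSeq, GRCm38.p6, plus strand), are shown for this pair of opposite changes, at chr13:16011601-16011900 and chr10:87860861-87861160, with capitals for letters that fit AP-1 (TGANTCA), the cAMP element CRE (TGACGTCA) or the TEAD core (GGAATG) on either strand.
Inhba: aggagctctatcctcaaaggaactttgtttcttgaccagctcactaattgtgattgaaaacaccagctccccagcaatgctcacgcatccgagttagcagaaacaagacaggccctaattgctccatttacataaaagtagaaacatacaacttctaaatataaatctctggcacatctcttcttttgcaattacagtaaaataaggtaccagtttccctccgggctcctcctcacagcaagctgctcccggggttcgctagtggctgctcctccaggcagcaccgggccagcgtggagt
Igf1: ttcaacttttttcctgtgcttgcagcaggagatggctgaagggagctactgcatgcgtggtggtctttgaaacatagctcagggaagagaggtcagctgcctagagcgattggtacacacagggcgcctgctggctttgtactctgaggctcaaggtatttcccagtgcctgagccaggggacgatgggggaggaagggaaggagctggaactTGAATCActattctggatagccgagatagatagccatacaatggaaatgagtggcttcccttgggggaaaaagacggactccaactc
The Inhba window held none of the 3 patterns. The Igf1 window held 1 stretch that fits TGANTCA, where N allows any base, from base 214. It reads TGAATCA, with A at the open position, so it fits only the loose pattern used here. Of the 269 genes called higher in both sets of libraries 196 had promoters in the RefSeq table, and of the 174 lower genes 136. Letters that fit TGANTCA stood in 7.17% of the 279 promoters of the higher genes and 6.04% of the 182 promoters of the lower genes. Over all 32851 promoters the share was 7.81%. For CRE the shares were 2.15%, 0% and 1.79%, and for TEAD 12.2%, 12.6% and 14.7%, in the same order; these shares are descriptions and no test was made of them.

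Inhba had 392, 395 and 370.0 CPM in 3D-2D-3D, against 10.9, 13.6 and 43.1 CPM in 3D. It rose by 5.01 ± 0.36 on the log2 scale in libraries 1 and 2 (adjusted p = 1.6e-08) and by 3.10 ± 0.46 in library 3 (adjusted p = 0.00054). The level was close to the 418 and 578 CPM of 3D-2D. Bmp2, a bone morphogenetic protein, followed another course, with 24.4, 23.6 and 61.0 CPM in 3D-2D-3D, against 1.98, 1.29 and 4.96 CPM in 3D, and 1.29 and 1.004 CPM in 3D-2D. It rose by 3.87 ± 0.35 in libraries 1 and 2 and by 3.62 ± 0.46 in library 3 (adjusted p = 1.3e-07 and 0.00013), and was thus high in the second 3D state and low in both states before it. Tgfb1, the founding ligand of the family, had 1002, 984 and 743 CPM in 3D-2D-3D, against 311, 293 and 301 CPM in 3D, and 126 and 154 CPM in 3D-2D (log2 fold change over 3D 1.59 ± 0.17, adjusted p = 1.2e-06). Fst, the secreted inhibitor that binds activin, had 26.2, 24.1 and 12.3 CPM in 3D-2D-3D, against 5.74, 7.07 and 6.04 CPM in 3D (1.73 ± 0.22, adjusted p = 1.3e-05). Ligand and inhibitor were thus both higher in each library of the second 3D state. Of 34 TGF-beta and BMP pathway genes 8 were called higher and 2 lower, against 11.2% and 11.8% over all genes. Their median was 0.23, and 0.15 in library 3.

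Other secreted growth factors changed in both directions. Of 35 tested, 14 were higher and 8 lower over all libraries, against 11.2% and 11.8% over all genes. In library 3 their median log2 fold change was 0.73, against 0.00 over all genes. Gdnf, a survival factor of neurons, had 51.0, 46.8 and 19.4 CPM in 3D-2D-3D, against 3.20, 4.30 and 2.53 CPM in 3D, and 12.4 and 13.3 CPM in 3D-2D (log2 fold change over 3D 3.55 ± 0.42, adjusted p = 5.7e-06). Areg, a ligand of the epidermal growth factor receptor, was rare, with 3.07, 2.95 and 2.16 CPM in 3D-2D-3D, against 0.152, 0.191 and 0.0347 CPM in 3D (4.43 ± 0.75, adjusted p = 0.00027). All libraries of the second 3D state lay above those of the first for both genes. Of 35 cytokine, chemokine and prostaglandin genes 9 were higher and 5 lower, against the same shares over all genes. Their median was 0.74, and 0.68 in library 3. Il11, a cytokine that drives fibroblast activation, had 7.50, 6.72 and 4.97 CPM in 3D-2D-3D, against 0.406, 0.478 and 0.521 CPM in 3D (3.74 ± 0.86, adjusted p = 0.0033). The abundant Il6 and Ccl2, an inflammatory cytokine and a chemokine for monocytes, did not pass the test (adjusted p = 0.057 and 0.27), but did so with the block (adjusted p = 0.016 and 0.024). Il6 had 31.9, 35.1 and 4.48 CPM in 3D-2D-3D, against 6.70, 6.83 and 1.60 CPM in 3D. Within each library number Il6 was therefore higher in 3D-2D-3D, while across numbers the groups overlapped.

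Some integrin and adhesion genes were higher after the passage, while most did not pass the test. Of 33 integrin and focal adhesion genes 12 were called higher and 2 lower, against 11.2% and 11.8% over all genes. Their median log2 fold change was 0.39, and 0.37 in library 3. When single libraries were left out 6 to 12 were higher, with 7 without 3D library 1 and without 3D-2D-3D library 1, 6 without 3D-2D-3D library 2, and at most 1 lower. Itgb3, the beta chain of the vitronectin receptor, had 788, 803 and 518 CPM in 3D-2D-3D, against 70.9, 77.6 and 129 CPM in 3D, and 76.8 and 92.5 CPM in 3D-2D. It rose over 3D by 2.93 ± 0.44 on the log2 scale (adjusted p = 9.8e-05), and by 2.01 ± 0.45 in library 3 alone (adjusted p = 0.013). Itga2, the alpha chain of a collagen receptor, had 23.5, 23.2 and 8.71 CPM in 3D-2D-3D, against 1.57, 2.01 and 1.80 CPM in 3D (3.35 ± 0.49, adjusted p = 6.1e-05). Neither integrin was high in the 3D-2D libraries, where Itga2 had 2.05 and 3.16 CPM. Of 19 cadherin, connexin and adhesion genes 7 were higher and 1 lower, against the same shares over all genes. When single libraries were left out 5 to 8 were higher, and their median in library 3 was 0.50. Cdh11, the cadherin that joins fibroblasts, had 162, 162 and 228 CPM in 3D-2D-3D, against 42.1, 46.7 and 57.6 CPM in 3D (1.92 ± 0.18, adjusted p = 3.8e-07). Vcam1, an adhesion molecule for leukocytes, had 1313, 1287 and 1115 CPM in 3D-2D-3D, against 304, 339.8 and 342 CPM in 3D, and 291 and 292 CPM in 3D-2D (1.91 ± 0.23, adjusted p = 7.1e-06).

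Among genes of other roles, Hmga2, an architectural chromatin protein of embryonic and growing cells, had 117, 119 and 299 CPM in 3D-2D-3D, against 3.10, 2.67 and 21.1 CPM in 3D, and 307 and 244 CPM in 3D-2D. Its log2 fold change of 4.29 ± 1.03 was the largest rise among abundant genes whose groups did not overlap (adjusted p = 0.0047). Library 3 was the highest of each group, and its rise of 3.82 ± 0.93 passed the test alone (adjusted p = 0.024). Slc20a1, a sodium-coupled phosphate importer, had 604, 621 and 389 CPM in 3D-2D-3D, against 79.5, 72.8 and 50.7 CPM in 3D (2.99 ± 0.31, adjusted p = 1.3e-06). Cspg4, the NG2 proteoglycan known from pericytes, had 109, 111 and 172 CPM in 3D-2D-3D, against 8.53, 8.69 and 34.8 CPM in 3D (2.90 ± 0.47, adjusted p = 0.00021). It was 1 of 2 pericyte and smooth muscle markers called higher among 14 tested, of which 2 were lower. Nptx1, a neuronal pentraxin, had 213, 209 and 1152 CPM in 3D-2D-3D, against 5.69, 7.74 and 163 CPM in 3D. Its call over all libraries (3.15 ± 1.13, adjusted p = 0.049) was lost when any library but 3D library 3 was left out (adjusted p = 0.053 to 0.31). Gfod1, an oxidoreductase-like protein, had 59.8, 61.2 and 46.2 CPM in 3D-2D-3D, against 6.60, 7.74 and 8.05 CPM in 3D (2.90 ± 0.29, adjusted p = 7.0e-07). Sema7a, a membrane-bound semaphorin, had 274, 272 and 103 CPM in 3D-2D-3D, against 16.5, 17.0 and 24.6 CPM in 3D (3.48 ± 0.66, adjusted p = 0.00087, with the block 0.051). Olr1, a receptor for oxidised low-density lipoprotein, had 289.9, 294 and 386 CPM in 3D-2D-3D, against 20.9, 20.9 and 65.5 CPM in 3D (3.17 ± 0.59, adjusted p = 0.00073), and 9.48 and 12.4 CPM in 3D-2D.

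**Figure D5:**
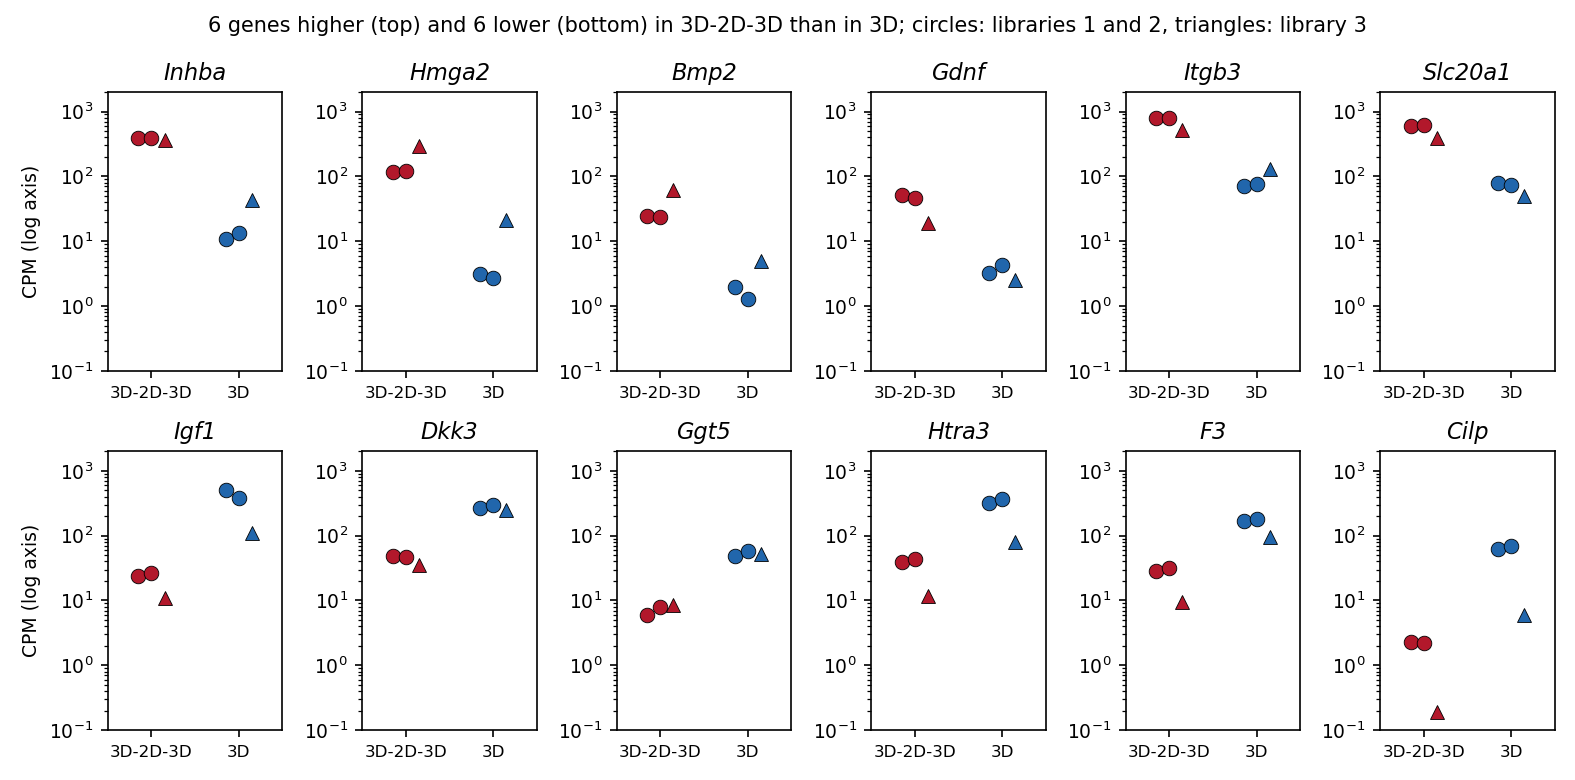
CPM on a log axis of 6 genes higher and 6 genes lower in 3D-2D-3D (left in each panel, red) than in 3D (right, blue), in each library; circles are libraries 1 and 2 and triangles library 3. In all 12 genes the groups do not overlap, and library 3 moves in the same direction as libraries 1 and 2. Lack of overlap and a call in library 3 were among the rules by which genes were named.

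Igf1 had 23.5, 26.2 and 10.8 CPM in 3D-2D-3D, against 511, 376 and 111 CPM in 3D, and 42.1 and 35.0 CPM in 3D-2D. It fell by 4.05 ± 0.57 on the log2 scale over all libraries (adjusted p = 5.4e-05) and by 3.35 ± 0.82 in library 3 (adjusted p = 0.025), and did not return after the flat state. In library 3 the summed macrophage markers were at 1080 CPM in 3D-2D-3D, against 1026 CPM in 3D, and their part in the change of Igf1 over all libraries was not tested. Of 16 genes of the insulin-like growth factor axis 3 were lower and 1 higher, against 11.8% and 11.2% over all genes. Cilp, a matrix protein that binds this growth factor and TGF-beta, had 2.25, 2.18 and 0.194 CPM in 3D-2D-3D, against 61.8, 68.7 and 6.04 CPM in 3D, and 0.877 and 0.201 CPM in 3D-2D (-4.90 ± 0.86, adjusted p = 0.0004). In each library number the second 3D state was far below the first for both genes.

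Several other falls that libraries 1 and 2 shared with library 3 were in secreted proteins and enzymes of the cell surface. Dkk3, a secreted protein of the Dickkopf family, had 48.8, 47.5 and 34.7 CPM in 3D-2D-3D, against 264, 292 and 245 CPM in 3D, and 6.56 and 4.06 CPM in 3D-2D (log2 fold change over 3D -2.61 ± 0.33, adjusted p = 1.7e-05). Ggt5, an enzyme that cleaves glutathione and leukotrienes, had 6.00, 7.85 and 8.42 CPM in 3D-2D-3D, against 49.3, 57.2 and 51.5 CPM in 3D, and 1.92 and 1.66 CPM in 3D-2D (-2.83 ± 0.18, adjusted p = 2.5e-09). Both genes lay between the flat and the first 3D state. Htra3, a secreted serine protease, had 38.7, 44.3 and 11.6 CPM in 3D-2D-3D, against 314, 371 and 78.5 CPM in 3D, and 2.84 and 4.82 CPM in 3D-2D (-3.01 ± 0.58, adjusted p = 0.00087). F3, tissue factor, which starts coagulation, had 28.96, 31.2 and 9.61 CPM in 3D-2D-3D, against 168, 182 and 94.2 CPM in 3D, and 88.8 and 152 CPM in 3D-2D, so it was lower in the second 3D state than in both states before (-2.67 ± 0.43 over 3D, adjusted p = 0.0002). Mdk, the growth factor midkine, had 3.96, 3.95 and 0.516 CPM in 3D-2D-3D, against 23.0, 26.4 and 6.84 CPM in 3D (-2.74 ± 0.61, adjusted p = 0.0027). All 5 genes also fell in library 3. A call in library 3 was among the rules by which genes were named, so this is no separate support.

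Inside the cell, Gstm1, a glutathione transferase, had 92.0, 86.7 and 118 CPM in 3D-2D-3D, against 246, 256 and 336 CPM in 3D (-1.50 ± 0.18, adjusted p = 6.4e-06). Bcl2l11, which encodes the cell death protein Bim, had 19.1, 19.4 and 29.6 CPM in 3D-2D-3D, against 61.0, 55.9 and 84.3 CPM in 3D, and 7.98 and 6.87 CPM in 3D-2D (-1.56 ± 0.24, adjusted p = 0.00012). For both genes every library of the second 3D state lay below every library of the first. Plcl2, a phospholipase C-like protein without catalytic activity, had 5.83, 5.63 and 3.10 CPM in 3D-2D-3D, against 32.9, 35.0 and 13.0 CPM in 3D (-2.47 ± 0.30, adjusted p = 7.1e-06). Cdkn1c, a cyclin-dependent kinase inhibitor of resting cells, had 0.409, 0.817 and 0.452 CPM in 3D-2D-3D, against 2.18, 2.20 and 2.12 CPM in 3D (-1.96 ± 0.40, adjusted p = 0.0013).

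The matrix differed gene by gene. Of 21 collagen chains 3 were called higher and 3 lower, against 11.2% and 11.8% over all genes. Their median log2 fold change was -0.01, with 0 higher and 1 lower with the block. Of 24 collagen processing and crosslinking genes 5 were higher and 1 lower. Col3a1 (4004, 4161 and 2900.2 CPM in 3D-2D-3D, against 8837, 9929.5 and 4004 CPM in 3D) did not pass the test (adjusted p = 0.25). Col15a1, a basement membrane collagen, had 597, 590.1 and 1001 CPM in 3D-2D-3D, against 350.2, 384 and 271 CPM in 3D (1.12 ± 0.26, adjusted p = 0.0038, with the block 0.11). Fn1, fibronectin, had 21426, 22074 and 19208 CPM in 3D-2D-3D, against 9321, 9452 and 18638 CPM in 3D, so that its rise (0.75 ± 0.19, adjusted p = 0.0078) was larger in libraries 1 and 2 (adjusted p of the difference 0.019) and was lost without 3D library 1 (adjusted p = 0.081), without 3D library 2 (0.062) and with the block (0.16). Tnc, tenascin C of healing tissue, had 2164, 2157 and 427 CPM in 3D-2D-3D, against 319, 336 and 321 CPM in 3D (2.28 ± 0.37, adjusted p = 0.00019, with the block 0.14). In library 3 of the second 3D state Tnc was little above the 3D libraries. Timp1, an inhibitor of matrix proteases, had 2689.6, 2589.8 and 1364 CPM in 3D-2D-3D, against 363, 422 and 437 CPM in 3D, and 2307 and 3555 CPM in 3D-2D (2.44 ± 0.42, adjusted p = 0.00036). Mmp2, a gelatinase, had 1902, 1894 and 1400.3 CPM in 3D-2D-3D, against 4121, 4613 and 2376 CPM in 3D, and 262 and 248 CPM in 3D-2D (-1.10 ± 0.23, adjusted p = 0.0018). Of 37 matrix proteases and their inhibitors 7 were higher and 9 lower, and of 44 matrix glycoproteins and proteoglycans 3 were higher and 9 lower, with 1 higher without 3D library 1 or 2, 8 higher without 3D library 3, and 5 lower without 3D library 2, 3D-2D-3D library 1 or 3D-2D-3D library 3. Without 3D library 3, 7 collagen chains were higher, and 2 collagen processing genes were higher without 3D library 1, 3D library 2 or 3D-2D-3D library 1.

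The mean level of resting fibroblast markers rose again from the flat state but stayed below that of every first 3D library. Their mean log2 CPM was 4.77, 4.80 and 4.41 in 3D-2D-3D, against 5.70, 5.87 and 5.01 in 3D, and 3.47 and 3.67 in 3D-2D. Of 31 tested 10 were called lower and 1 higher, with a median log2 fold change of -0.70, and 4 were lower without 3D library 2. In library 3 the median was -0.66 and 0 were called in either direction. Fbln1, a matrix protein of resting fibroblasts, had 159, 157 and 68.5 CPM in 3D-2D-3D, against 916, 1035 and 202 CPM in 3D (-2.49 ± 0.52, adjusted p = 0.0017). Pi16, a marker of a progenitor-like fibroblast, had 6.07, 4.77 and 2.81 CPM in 3D-2D-3D, against 30.3, 37.9 and 7.64 CPM in 3D (-2.47 ± 0.67, adjusted p = 0.01; 0.056 without 3D library 2). Both were lower in every library of the second 3D state, and 3D library 3 lay nearest to it. Of 23 activated fibroblast markers 6 were higher and 4 lower, with a median of 0.55, with 3 higher without 3D library 1 or 2 and 2 higher and 6 lower with the block. Its members went different ways: Acta2 fell, Timp1 and Tnc rose, and Postn, a matrix protein of activated fibroblasts, with 1121, 1126 and 613 CPM in 3D-2D-3D, against 1561, 1734 and 906 CPM in 3D, did not pass the test (adjusted p = 0.17, with the block 0.035).

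Cell division genes were called lower in libraries 1 and 2, and 0 of them were called in library 3. The summed level of 34 mitosis genes was 81.4, 90.1 and 68.6 CPM in 3D-2D-3D, against 271, 219.8 and 74.1 CPM in 3D, and 1449.8 and 896 CPM in 3D-2D. Of them 19 were called lower and 0 higher over all libraries, 27 lower in libraries 1 and 2, 0 in library 3, 1 with the block, 6 without 3D library 1, 11 without 3D library 2, 12 without 3D-2D-3D library 3 and 30 without 3D library 3. Mki67, which marks dividing cells, had 4.06, 5.86 and 2.42 CPM in 3D-2D-3D, against 42.0, 29.6 and 2.01 CPM in 3D (-2.58 ± 0.74, adjusted p = 0.015). That call was lost without 3D library 1 (adjusted p = 0.094), without 3D-2D-3D library 1 (0.054), without 3D-2D-3D library 3 (0.066) and with the block (0.23). Of 32 genes of DNA replication 4 were lower and 0 higher, with 4 lower with the block, 0 in library 3, 2 without 3D library 1, 3D library 2 or 3D-2D-3D library 3, and 15 without 3D library 3. The test of the difference between library 3 and libraries 1 and 2 called 0 of the 34 mitosis and 0 of the 32 replication genes. Immediate early genes followed the same division of libraries, with 8 of 25 lower and 1 higher over all libraries and 0 lower and 4 higher in library 3, and 2 lower with the block. Without single libraries 4 to 14 were lower, with 5 without 3D library 1, 4 without 3D library 2 or 3D-2D-3D library 3, and 14 without 3D library 3. Of 14 dissociation and early stress genes 6 were lower and 1 higher, but 1 was lower with the block, and 0 were lower and 2 higher in library 3. Their lower calls came to 3 without 3D library 1, 2 without 3D library 2 or 3D-2D-3D library 3, and 10 without 3D library 3. Most of these 14 genes are also in the immediate early list, so the counts of the 2 lists are not separate results. Egr1, an early response factor, had 225, 223 and 116 CPM in 3D-2D-3D, against 954, 1092 and 94.4 CPM in 3D (-1.92 ± 0.52, adjusted p = 0.0099). Its call was lost without 3D library 2 (adjusted p = 0.069), without 3D-2D-3D library 3 (0.051) and with the block (0.26). The exception that rose was Fosl1, a Fos family member, with 12.5, 10.4 and 12.0 CPM in 3D-2D-3D, against 1.83, 2.77 and 2.19 CPM in 3D, and 29.8 and 34.2 CPM in 3D-2D (2.36 ± 0.52, adjusted p = 0.0027).

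Among metabolic and stress genes few changed as a group. Of 35 ribosomal protein genes 0 were called, with a median log2 fold change of -0.07, and of 35 genes of oxidative phosphorylation 4 were lower and 0 higher, with 13 lower without 3D library 3, 2 without 3D library 1 or 3D-2D-3D library 3, 1 without 3D-2D-3D library 1 or 2 or with the block, and 0 without 3D library 2. The glucose transporter gene Slc2a1 had 262, 253 and 271 CPM in 3D-2D-3D, against 92.1, 89.6 and 73.1 CPM in 3D (1.63 ± 0.28, adjusted p = 0.00039), while of 28 glycolysis and hypoxia genes 2 were higher and 2 lower. Acsl4, which activates long-chain fatty acids, had 257, 259.8 and 180.0 CPM in 3D-2D-3D, against 81.2, 71.6 and 71.2 CPM in 3D (1.64 ± 0.22, adjusted p = 2.7e-05). Both were called in library 3 as well (adjusted p = 0.03 and 0.047). Of 25 genes of cholesterol synthesis 1 was higher and 0 lower, namely Srebf2, its main transcription factor (0.71 ± 0.15, adjusted p = 0.0019). In libraries 1 and 2, 7 of the 25 were higher and 1 lower, with a median of 0.54, while the median was -0.30 in library 3. Of 31 antioxidant and glutathione genes 6 were higher and 5 lower, and Prdx1, a peroxiredoxin, had 3356, 3189.8 and 1913 CPM in 3D-2D-3D, against 1616, 1438 and 939 CPM in 3D (1.08 ± 0.23, adjusted p = 0.0017). Of 15 heat shock genes 5 were higher and 0 lower, with 2 higher in library 3 1 without 3D library 1 and 2 without 3D library 2, led by Hsph1, a co-chaperone, with 105, 107 and 104 CPM in 3D-2D-3D, against 52.1, 55.3 and 66.4 CPM in 3D (0.86 ± 0.11, adjusted p = 1.5e-05). Of 39 interferon and antigen presentation genes 3 were lower and 0 higher. In libraries 1 and 2, 9 of them were lower, with a median log2 fold change of -0.61, while the median was 0.78 in library 3. Of 27 genes of the ATF4 response and serine and folate metabolism 2 were higher and 6 lower, of 21 chaperones of the endoplasmic reticulum 2 were higher and 1 lower, and of 17 genes of fatty acid synthesis 3 moved each way. Of 26 CDK inhibitors, D cyclins and p53 targets 2 were higher and 7 lower over all libraries, but 6 were higher and 5 lower in libraries 1 and 2, and the higher calls ran from 0 without 3D library 1, 3D library 2 or 3D-2D-3D library 3 to 7 without 3D library 3, and the lower calls came to 4 without 3D-2D-3D library 1. Of 15 BCL2 family genes 1 was higher and 5 lower, 1 lower with the block and 2 lower without 3D library 2 or any single 3D-2D-3D library. Of 16 complement genes 0 were higher and 4 lower. Of 29 Wnt pathway genes 4 were higher and 5 lower, and of 17 Notch pathway genes 1 was higher and 3 lower. Over all genes 11.2% were higher and 11.8% lower. Of 31 transcription factors of the cardiac fibroblast lineage 9 were higher and 4 lower, but 1 was higher and 3 lower in library 3, and 3 were higher without 3D library 1 and 5 without 3D-2D-3D library 3. Without 3D library 3, 10 ATF4 and serine-folate genes, 9 glycolysis and hypoxia genes and 5 interferon genes were lower, and 7 Wnt pathway and 8 fatty acid synthesis genes were higher; without 3D library 1, 3 ATF4 and serine-folate genes were lower and 2 Wnt pathway genes higher.

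The immediate early list holds most of the dissociation and early stress genes, so their counts below are not separate results. A test of the difference named genes whose change was not the same in library 3 as in libraries 1 and 2. Among 27 macrophage markers 2 were called by it, among 25 immediate early genes 5 and among 14 dissociation and early stress genes 4, all in the positive direction. The largest positive difference was that of Ccl6, a chemokine, with 4.54, 5.36 and 6.29 CPM in 3D-2D-3D, against 585, 476 and 2.01 CPM in 3D (difference of the log2 fold changes 8.39, adjusted p = 0.04). On the negative side, Col12a1, a collagen that sits on fibrils, had 259.6, 274 and 96.1 CPM in 3D-2D-3D, against 70.8, 73.2 and 307 CPM in 3D, so that it rose in libraries 1 and 2 (1.89 ± 0.20, adjusted p = 1.4e-06) and fell in library 3 (-1.68 ± 0.29, adjusted p = 0.0014), with a difference of -3.57 (adjusted p = 4.8e-05). Lox, the collagen crosslinking enzyme, had 742, 763 and 368 CPM in 3D-2D-3D, against 211, 236 and 772 CPM in 3D, a difference of -2.82 (adjusted p = 0.032). For both genes the 3D library 3 was the highest of its group and the 3D-2D-3D library 3 the lowest of its own. Grem1, a secreted BMP inhibitor, had 35.6, 33.1 and 124 CPM in 3D-2D-3D, against 0.762, 0.430 and 38.7 CPM in 3D, so it rose in libraries 1 and 2 (5.84 ± 0.63, adjusted p = 1.8e-06), while in library 3 the change of 1.67 ± 0.65 did not pass the test (adjusted p = 0.19).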

How the data were processed

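Per the labels, RNA of mouse cardiac fibroblasts was sequenced, and the table the authors deposited holds unnormalised counts of reads for each gene in 29 libraries. Per the submitters' processing notes, the tools were TopHat, HTSeq, Bowtie and MACS2 with the mm10 build; no version or strand setting was found in the labels, so overlapping antisense genes cannot be told apart. The table held 24421 genes and 5 summary lines, which were left out: reads that did not map uniquely (16.3% to 21.3% in the 6 libraries compared), in no feature (6.79% to 7.99%) and ambiguous (0.934% to 1.05%). Total counts were 8509987 to 29909400 over the 29 libraries. These totals set the counting precision.

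Counts of all 29 libraries in 10 groups were fitted with edgeR 4.0.16 (R 4.3.3, limma 3.58.1; TMM scaling, filterByExpr, robust quasi-likelihood test), with Benjamini-Hochberg adjustment over 14036 genes and calls at an adjusted p under 0.05. A second fit with library 3 apart (13 groups) gave libraries 1 and 2, library 3 and the test of their difference. CPM used TMM library sizes, and log2 CPM a prior count of 2. Libraries with the same replicate number deviated together (r = 0.196, 0.268 and 0.300 across genes), so the number was also used as a block, on the 6 libraries. Libraries 1 and 2 deviated as much with each other's number (r = 0.221 and 0.259), and those with library 3 of the other group were negative, so the shared part sets library 3 against 1 and 2. Symbols were matched to RefSeq for 13979 tested genes. DESeq2 1.42.0, other scalings and filters, summed libraries and leaving out each library were alternatives.

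Named genes are the 12 largest rises and falls called without overlap at an average log2 CPM of 3 or more, the 8 largest called both in libraries 1 and 2 and in library 3, the 8 largest each way in the test of their difference, up to 4 called members of a described list, and a panel of fibroblast genes; not all are printed. Not eligible were pseudogenes, gene models without a name, Y-linked genes and Xist. The comparison and the lists were chosen with earlier results of these data known.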

Additional observations from a re-analysis of the deposited data

Results flagged for a closer look

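The change between the second and the first 3D state was not the same in library 3 as in libraries 1 and 2 for 264 genes, by a test of the difference itself. Its size is the log2 fold change in library 3 minus that in libraries 1 and 2. It was 8.39 for Ccl6, 6.43 for C3ar1, 6.03 for Cd180, 5.75 for Hk3, 5.70 for Ccr1, 5.66 for Adam8, 5.63 for Ctss and 5.46 for Ccl9, genes with levels in 3D libraries 1 and 2 far above those of 3D library 3. It was -4.16 for Grem1, -3.57 for Dact2, -3.57 for Col12a1, -3.34 for Adamts15, -2.82 for Lox, -2.77 for Kit, -2.77 for Nptx2 and -2.74 for Cthrc1. Library 3 also differed in its reads of Xist and of Y-linked genes, whose part in these differences was not tested.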

How the results depend on the processing

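DESeq2 called 3551 genes. A fit of the 6 libraries alone called 1485 genes (821 higher and 664 lower), 653 of them by at least 2-fold. The block fit called 1587 (861 higher and 726 lower), 742 of them by at least 2-fold. Summing libraries 1 and 2 of 2D, 3D and 3D-2D-3D gave 1132 calls (556 higher and 576 lower), 700 by at least 2-fold. Leaving out 1 library gave 1991 to 4100 calls, 865 to 2028 higher and 1098 to 2072 lower, and 2328 to 2686 calls for libraries 1 and 2. Without the filter on low counts the difference between library 3 and libraries 1 and 2 was called in 161 genes. Of the list higher in 3D at 5 days, 17.2% were lower with the block, 22.2% with any fold in the choice of the list, and in library 3 2.19% were higher and 6.46% lower. Of the other list, 8.92% were lower with the block and 10.3% with any fold, and in library 3 5.29% were higher and 2.69% lower. The median distance between the groups was 0.717 for genes that averaged 3 or more in log2 CPM, against 1.01. Of 134 single genes followed through these settings, 42 lost their call with summed libraries and 56 in the fit of the 6 libraries alone. With the block 47 lost it and 4 gained it. With summed libraries Col12a1 and Kit reversed to -0.094 and -0.092. Leaving out 1 library gave log2 fold changes of -0.0492 to 0.30 for Ddr2, -0.46 to 0.10 for Tcf21 and -0.0071 to 0.72 for Kit. The causes were not tested. Depth limits genes of few counts, such as Areg and Cdkn1c.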

Other observations

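The 4 genes given here were chosen after their values were seen and stand for no list. Spry4, a feedback inhibitor of the ERK kinase pathway, had 77.3, 70.3 and 121 CPM in 3D-2D-3D, against 12.4, 12.9 and 15.9 CPM in 3D (log2 fold change 2.70 ± 0.32 SE, adjusted p = 7.3e-06, edgeR). Spred2, a related inhibitor, had 217, 220.2 and 199.5 CPM in 3D-2D-3D, against 38.5, 38.0 and 58.5 CPM in 3D (2.23 ± 0.26, adjusted p = 6.3e-06). For both genes the groups did not overlap, and both were also called in library 3 alone (adjusted p = 0.00019 and 0.0014). Dusp6, a phosphatase that turns ERK off, had 103, 101 and 95.3 CPM in 3D-2D-3D, against 43.0, 44.2 and 13.5 CPM in 3D (1.58 ± 0.40, adjusted p = 0.0063, with the replicate block 0.097). Fgf2, a fibroblast growth factor, had 39.5, 42.9 and 54.4 CPM in 3D-2D-3D, against 3.91, 4.68 and 13.4 CPM in 3D (2.62 ± 0.48, adjusted p = 0.00056).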
